A study of Saccharomyces cerevisiae with 8 samples.

Results

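The transcripts described here encode 39 yeast enzymes and factors that modify, splice or export tRNA. These genes were listed apart from those of the pathway of the wobble uridine U34. They were picked by gene symbol from a count table of 6337 genes, and all 39 were found. The list holds 15 methyltransferase genes, 7 pseudouridine synthase genes, 3 dihydrouridine synthase genes, 3 adenosine deaminase genes, 3 genes for bulky bases beside the anticodon, THG1, 4 splicing endonuclease genes, TRL1, TPT1 and LOS1. The mRNA of Saccharomyces cerevisiae was sequenced in 4 strains with 2 libraries each, to follow gene expression in cells without tRNA modification, without ribosome-associated quality control, or without both. The strains were the triple mutant ncs2Δelp6Δhel2Δ (ncs2Δ::HIS3MX, elp6Δ::URA3 and hel2Δ::LEU2), ncs2Δelp6Δ (with the same pair of NCS2 and ELP6 alleles), hel2Δ (hel2Δ::LEU2) and wild type. All carried his3Δ1, leu2Δ0 and ura3Δ0 in a MATa BY4741 background and grew at 30 °C in the rich medium YPD. The wild-type label alone adds met15Δ0.

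Transfer RNAs carry many modified bases, each placed by a dedicated enzyme. Bases in and next to the anticodon tune decoding, whereas those in the D loop, the T loop and the body of the molecule stabilise its fold. Some yeast tRNA genes also hold an intron, which an endonuclease cuts out at the mitochondrial surface before a ligase joins the exons. Ncs2 belongs to the pathway that gives U34 its thiol group and Elp6 to the Elongator complex, which starts its side chain, so that U34 lacks both without them. Hel2 is the ubiquitin ligase that recognises collided ribosomes.

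Library totals lay between 13252947 and 23941037 counts, and every member passed the filter on low counts, with at least 260 counts in each library. The deleted genes matched the labels. HEL2 had 0 and 1 counts in ncs2Δelp6Δhel2Δ and 0 and 0 in hel2Δ, against at least 1246 in the libraries of strains that keep it. NCS2 had at most 11 counts and ELP6 at most 10 where they were deleted, against at least 582 and 904 elsewhere. MET17, the sulfur assimilation gene whose deletion is written met15Δ0, had 4321 to 6651 counts in ncs2Δelp6Δhel2Δ and ncs2Δelp6Δ, against 0 to 6 in hel2Δ and wild type, although the hel2Δ label names no such deletion. Loss of U34 modification therefore cannot be told apart from the state of MET17 or from the HIS3MX and URA3 markers, nor loss of HEL2 from the LEU2 marker. The member closest to a deleted gene was GCD10, 106.3 kb from NCS2. The study calls its mRNA replicates biological, while the labels do not say how the cultures were kept apart, and p-values measure the spread between these libraries. Levels are CPM, counts scaled to a common library size with TMM factors. They are shares of a library, so that a change in share and a change in mRNA per cell cannot be told apart.

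Relative to coding length, the members differed widely in level. The mean over the 8 libraries was lowest for PUS2, the gene of a pseudouridine synthase of mitochondrial tRNAs, at 17.3 CPM per kb. TRL1, the tRNA ligase gene, stood next at 17.5 CPM per kb. The highest was TRM112, which encodes a small activating partner shared by several methyltransferases, at 259 CPM per kb. The median member was SEN15 with 61.5 CPM per kb, and the highest level was 15 times the lowest. Levels varied less between strains than between members. The range of log2 CPM over the 8 libraries was smallest for TRL1 at 0.13, had a median of 0.45, and was largest for TRM8 at 0.95. The summed level of the list was 3323 and 3283 CPM in ncs2Δelp6Δhel2Δ, 3428 and 3501 CPM in ncs2Δelp6Δ, 3396 and 3292 CPM in hel2Δ and 3410 and 3269 CPM in wild type.

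Loss of U34 modification moved individual members in both directions, and it did so at about the rate of all genes. In ncs2Δelp6Δ against wild type, 11 of 39 members (28.2%) were called at an adjusted p under 0.05 in edgeR's quasi-likelihood test, against 27.9% of the 6087 genes tested. Of these, 6 were higher (15.4%, against 14.9% of all genes) and 5 lower (12.8%, against 13% of all genes). In ncs2Δelp6Δhel2Δ against hel2Δ, 12 members (30.8%) were called, against 28.8% of all genes. There 5 were higher (12.8%, against 15.1%) and 7 lower (17.9%, against 13.8%). The median log2 fold change of the list was 0.05 in the first comparison and -0.05 in the second, against 0.03 and 0.00 over all genes. Scaling by library totals instead of TMM shifted the median of all genes to 0.14 and 0.10, so the split into higher and lower members depends on the scaling. With library totals 14 members were higher and 2 lower in the first comparison and 8 higher and 5 lower in the second. The median of the list moved with that of all genes, to 0.16 and 0.05. In the first comparison, RLE scaling gave 3 higher and 6 lower, and DESeq2 3 higher and 7 lower. Shares of all genes under these settings are not given here, so these counts are not set against a background. The largest change in either comparison was 1.70-fold.

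The comparisons of U34 loss share no library. TRM2, TRM112, TRM8, PUS1 and PUS6 were called in both, in the same direction, which is 45.5% of the members called in the first and 41.7% of those called in the second. Over all genes tested these shares were 63.6% and 61.6%. The sign of the log2 fold change was the same for 31 of the 39 members (79.5%), against 74% of all genes. There were 18 members called in either comparison and 21 in neither, against 2372 of the 6087 genes tested called in either.

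**Figure D1:**
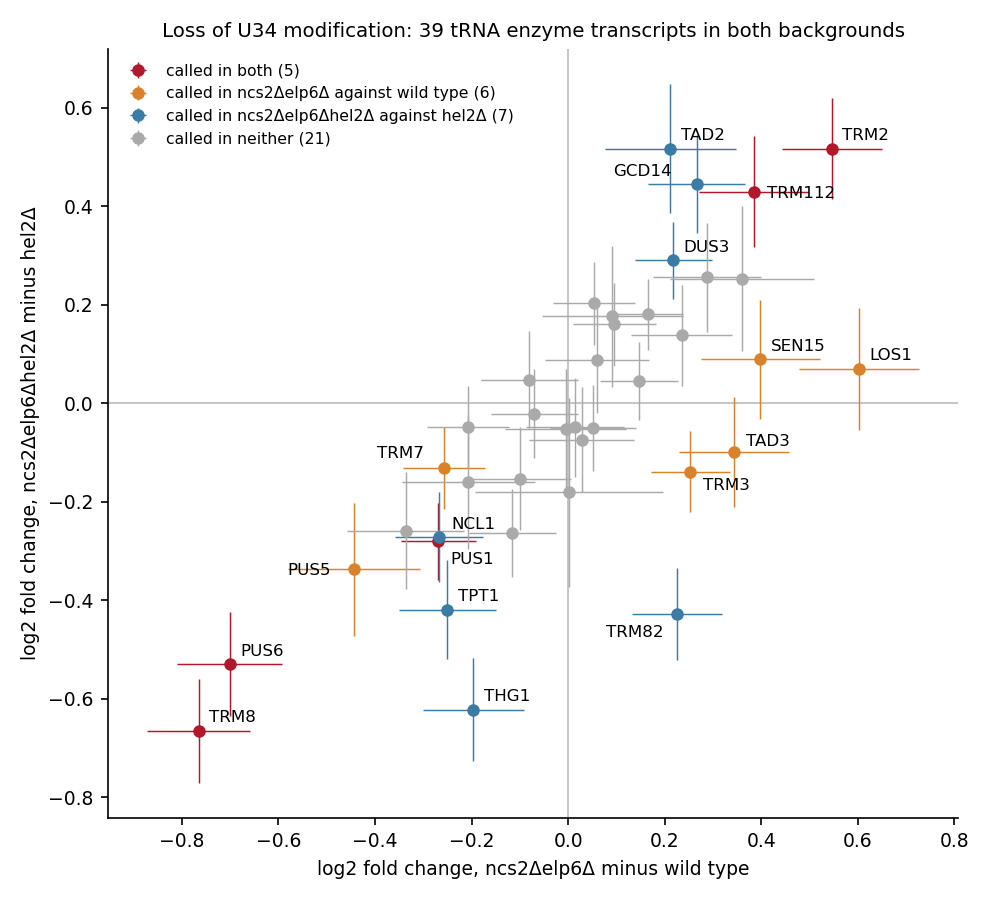
Log2 fold change of each of the 39 members in ncs2Δelp6Δ minus wild type (x axis) and in ncs2Δelp6Δhel2Δ minus hel2Δ (y axis), with standard errors as bars and colour by call. TRM8 and PUS6 lie at the lower left and TRM2 at the upper right in both comparisons, whereas LOS1, TAD3, TRM3 and TRM82 lie off the diagonal.

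Of the 15 methyltransferase genes, 3 were higher and 2 lower in ncs2Δelp6Δ, and 3 were higher and 3 lower in ncs2Δelp6Δhel2Δ, each against its background. TRM2 (chromosome XI, 549448 to 551367) encodes the enzyme that makes ribothymidine in the T loop. It had 180 and 189 CPM in ncs2Δelp6Δhel2Δ and 177 and 186 CPM in ncs2Δelp6Δ, against 137 and 121 CPM in hel2Δ and 136 and 113 CPM in wild type. All 4 libraries without U34 modification stood above the other 4. TRM2 rose by a log2 fold change of 0.55 ± 0.10 (SE) with Hel2 (adjusted p = 0.00455) and of 0.52 ± 0.10 without it (adjusted p = 0.00524).

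TRM8 (chromosome IV, 99561 to 100421), the catalytic subunit gene of the complex that makes 7-methylguanosine in the variable loop, had the largest fall of the list. Its level was 60.7 and 50 CPM in ncs2Δelp6Δhel2Δ and 53.6 and 57.8 CPM in ncs2Δelp6Δ, against 92.6 and 83.0 CPM in hel2Δ and 93.0 and 96.4 CPM in wild type. The 4 libraries without U34 modification all lay below the rest. The log2 fold change was -0.77 ± 0.11 with Hel2 (adjusted p = 0.000882) and -0.67 ± 0.11 without it (adjusted p = 0.00161). Its partner TRM82 was not called with Hel2, at 0.225, and was lower by 0.43 without it. TRM82 is described with the loss of HEL2.

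TRM112 (chromosome XIV, 707788 to 708195), the partner of Trm11 in making N2-methylguanosine and of other methyltransferases of tRNA, rRNA and a release factor, was higher in both comparisons. It had 122 and 117 CPM in ncs2Δelp6Δhel2Δ and 133 and 106 CPM in ncs2Δelp6Δ, against 83.1 and 94.4 CPM in hel2Δ and 90.2 and 92.4 CPM in wild type. The groups did not overlap, with log2 fold changes of 0.39 ± 0.11 (adjusted p = 0.0318) and 0.43 ± 0.11 (adjusted p = 0.0193). The first call was lost without either wild-type library, ncs2Δelp6Δ replicate 1 or either ncs2Δelp6Δhel2Δ library (adjusted p = 0.0648 to 0.328). The second was lost without hel2Δ replicate 1 or either ncs2Δelp6Δhel2Δ library (0.0635 to 0.109). TRM11 itself was called in neither, with log2 fold changes of -0.07 and -0.02.

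Other methyltransferase calls were smaller or came from one background. GCD14, the catalytic subunit gene of the T-loop 1-methyladenosine enzyme, rose by 0.45 ± 0.10 in ncs2Δelp6Δhel2Δ against hel2Δ (adjusted p = 0.00995), a call lost without hel2Δ replicate 2 or ncs2Δelp6Δhel2Δ replicate 1 (0.0537 and 0.0827). Its value with Hel2 was 0.27 (adjusted p = 0.0774). GCD10, the gene of its partner subunit, had 0.16 in ncs2Δelp6Δhel2Δ against hel2Δ and 0.10 in ncs2Δelp6Δ against wild type and was called in neither. NCL1, which makes 5-methylcytidine, fell by 0.27 on the log2 scale in ncs2Δelp6Δhel2Δ against hel2Δ (adjusted p = 0.0496) and stood at -0.27 in ncs2Δelp6Δ against wild type without being called (adjusted p = 0.0545). Omission of any one library of the strains ncs2Δelp6Δhel2Δ, hel2Δ or ncs2Δelp6Δ ended the NCL1 call (0.0514 to 0.215).

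TRM7, whose product methylates riboses in the anticodon loop, was lower by 0.26 ± 0.09 in ncs2Δelp6Δ against wild type (adjusted p = 0.0486). This call was lost without any one library of wild type, hel2Δ or ncs2Δelp6Δ (0.0574 to 0.188), and in a fit blocked on replicate number (adjusted p = 0.0547). TRM3, for ribose methylation of a D-loop guanosine, was higher by 0.25 ± 0.08 in the same comparison (adjusted p = 0.0457) and at -0.14 in ncs2Δelp6Δhel2Δ against hel2Δ. The TRM3 call was lost without any one library of ncs2Δelp6Δhel2Δ, ncs2Δelp6Δ or wild type (0.0693 to 0.329). RLE scaling and DESeq2 each ended this TRM3 call too (adjusted p = 0.0623 and 0.0922). The genes TRM1, TRM5, TRM10, TRM13 and TRM44 were called in no comparison. TRM5, the methyltransferase gene for the guanosine next to the anticodon, had the largest log2 fold change of the members never called, 0.36 in ncs2Δelp6Δ against wild type (adjusted p = 0.101).

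Among the 7 pseudouridine synthase genes, none was called higher in either comparison, 3 were lower in ncs2Δelp6Δ and 2 in ncs2Δelp6Δhel2Δ, where 14.9% and 15.1% of all genes were higher and 13% and 13.8% lower. Their median log2 fold change was -0.21 and -0.18, against 0.03 and 0.00 over all genes. PUS6 (chromosome VII, 834689 to 835903), for a site in the anticodon stem, had 24.6 and 27.1 CPM in ncs2Δelp6Δhel2Δ and 25.2 and 25.7 CPM in ncs2Δelp6Δ, against 39.8 and 34.9 CPM in hel2Δ and 40.7 and 42.3 CPM in wild type. No library without U34 modification reached the lowest of the others. PUS6 fell by 0.70 on the log2 scale with Hel2 (SE 0.11, adjusted p = 0.00155) and by 0.53 without it (SE 0.11, adjusted p = 0.00558).

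PUS1 (chromosome XVI, 151515 to 153149), a synthase with many sites in tRNA and other RNA, fell less. It had 158 and 149 CPM in ncs2Δelp6Δhel2Δ and 137 and 149 CPM in ncs2Δelp6Δ, against 190 and 183 CPM in hel2Δ and 178 and 167 CPM in wild type. Again the groups did not overlap. The log2 fold changes were -0.27 ± 0.08 (adjusted p = 0.0302) and -0.28 ± 0.08 (adjusted p = 0.025). The first call was lost without wild type replicate 1 or either ncs2Δelp6Δ library (0.0527 to 0.154), and the second without any one library of ncs2Δelp6Δhel2Δ or hel2Δ (0.0614 to 0.106). With library totals as the scaling, the adjusted p-values were 0.182 and 0.145. PUS5, for mitochondrial ribosomal RNA, was lower by 0.44 ± 0.14 in ncs2Δelp6Δ against wild type (adjusted p = 0.0383), which was lost without wild type replicate 2 or either ncs2Δelp6Δ library (0.105 to 0.183) and with library totals (0.0911). PUS2, PUS4, PUS7 and PUS9 were not called.

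Of the 3 dihydrouridine synthase genes, DUS3, for the variable loop, was higher by 0.29 ± 0.08 in ncs2Δelp6Δhel2Δ against hel2Δ (adjusted p = 0.0235). The call was lost without hel2Δ replicate 2 or either ncs2Δelp6Δhel2Δ library (0.0572 to 0.139). With Hel2, DUS3 stood at 0.22 (adjusted p = 0.0684). DUS1 and DUS4, for the D loop, were not called. None of TYW1 and TYW3, for wybutosine in tRNA-Phe, or MOD5, for isopentenyladenosine, was called, and their log2 fold changes lay between -0.21 and 0.18.

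The deaminase that makes wobble inosine is a dimer of Tad2 and Tad3, and its subunit genes were each called in one comparison. TAD2 had 26.7 and 26.1 CPM in ncs2Δelp6Δhel2Δ, against 16.8 and 20.1 CPM in hel2Δ, which is 0.52 ± 0.13 on the log2 scale (adjusted p = 0.0171). Without hel2Δ replicate 1 or either ncs2Δelp6Δhel2Δ library the call was lost (0.0644 to 0.0951). TAD3 had 37.8 and 38.6 CPM in ncs2Δelp6Δ, against 28.2 and 32.2 CPM in wild type, which is 0.34 ± 0.11 on the log2 scale (adjusted p = 0.0493). That call was lost without any one library of ncs2Δelp6Δhel2Δ, ncs2Δelp6Δ or wild type (0.0501 to 0.261). RLE scaling and DESeq2 each ended the TAD3 call too (adjusted p = 0.0628 and 0.0993). TAD2 stood at 0.21 with Hel2 (adjusted p = 0.272) and TAD3 at -0.10 without it (adjusted p = 0.534). The interaction was called for neither, at 0.30 for TAD2 (adjusted p = 0.526) and -0.44 for TAD3 (adjusted p = 0.261). TAD3, the only member with more than 1 coding exon (3), overlaps NKP2 on the other strand by 4 bases. Whether counting used the strand was not stated. TAD1, for inosine next to the anticodon of tRNA-Ala, was not called and had -0.26 in ncs2Δelp6Δhel2Δ against hel2Δ (adjusted p = 0.0514).

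THG1 (chromosome VII, 531883 to 532596) encodes the enzyme that adds a guanosine to the start of tRNA-His. It had 68.8 and 87.2 CPM in ncs2Δelp6Δhel2Δ and 105 and 108 CPM in ncs2Δelp6Δ, against 118 and 122 CPM in hel2Δ and 123 and 121 CPM in wild type. The triple mutant lay below all other libraries, and ncs2Δelp6Δ lay between it and the strains with U34 modification. THG1 fell by 0.62 on the log2 scale in ncs2Δelp6Δhel2Δ against hel2Δ (SE 0.10, adjusted p = 0.00227). With Hel2 the value was -0.20 (adjusted p = 0.197).

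Among the splicing genes, SEN15 and TPT1 were each called in one comparison. SEN15, a structural subunit gene of the tRNA splicing endonuclease, had 29.5 and 27.4 CPM in ncs2Δelp6Δ, against 21.8 and 21.3 CPM in wild type, or 0.40 ± 0.12 on the log2 scale (adjusted p = 0.0381). The call was lost without any one library of ncs2Δelp6Δhel2Δ, ncs2Δelp6Δ or wild type (0.0628 to 0.238), and ncs2Δelp6Δhel2Δ differed from hel2Δ by 0.09. RLE scaling and DESeq2 each ended the SEN15 call too (adjusted p = 0.0511 and 0.0758). The catalytic subunit genes SEN2 and SEN34 and the structural SEN54 were not called. SEN2 had -0.34 with Hel2 (adjusted p = 0.066) and -0.26 without it. TRL1, whose ligase also joins the HAC1 mRNA, had 0.05 and -0.05, with 41.5 to 45.6 CPM in all 8 libraries. TPT1, which removes the phosphate left at the splice junction, fell by 0.42 in ncs2Δelp6Δhel2Δ against hel2Δ (SE 0.10, adjusted p = 0.0128) and stood at -0.25 with Hel2 (adjusted p = 0.0927). The TPT1 call was lost without hel2Δ replicate 1 or ncs2Δelp6Δhel2Δ replicate 1 (0.0635 and 0.0957).

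LOS1 (chromosome XI, 50051 to 53353), the nuclear exportin of tRNA, had 120 and 116 CPM in ncs2Δelp6Δhel2Δ and 170 and 175 CPM in ncs2Δelp6Δ, against 101 and 124 CPM in hel2Δ and 100 and 127 CPM in wild type. The ncs2Δelp6Δ libraries alone stood apart. LOS1 rose by 0.60 ± 0.12 in ncs2Δelp6Δ against wild type (adjusted p = 0.00684), a call lost without ncs2Δelp6Δ replicate 2 (adjusted p = 0.0533). In ncs2Δelp6Δhel2Δ against hel2Δ it had 0.07 ± 0.12 (adjusted p = 0.696).

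**Figure D2:**
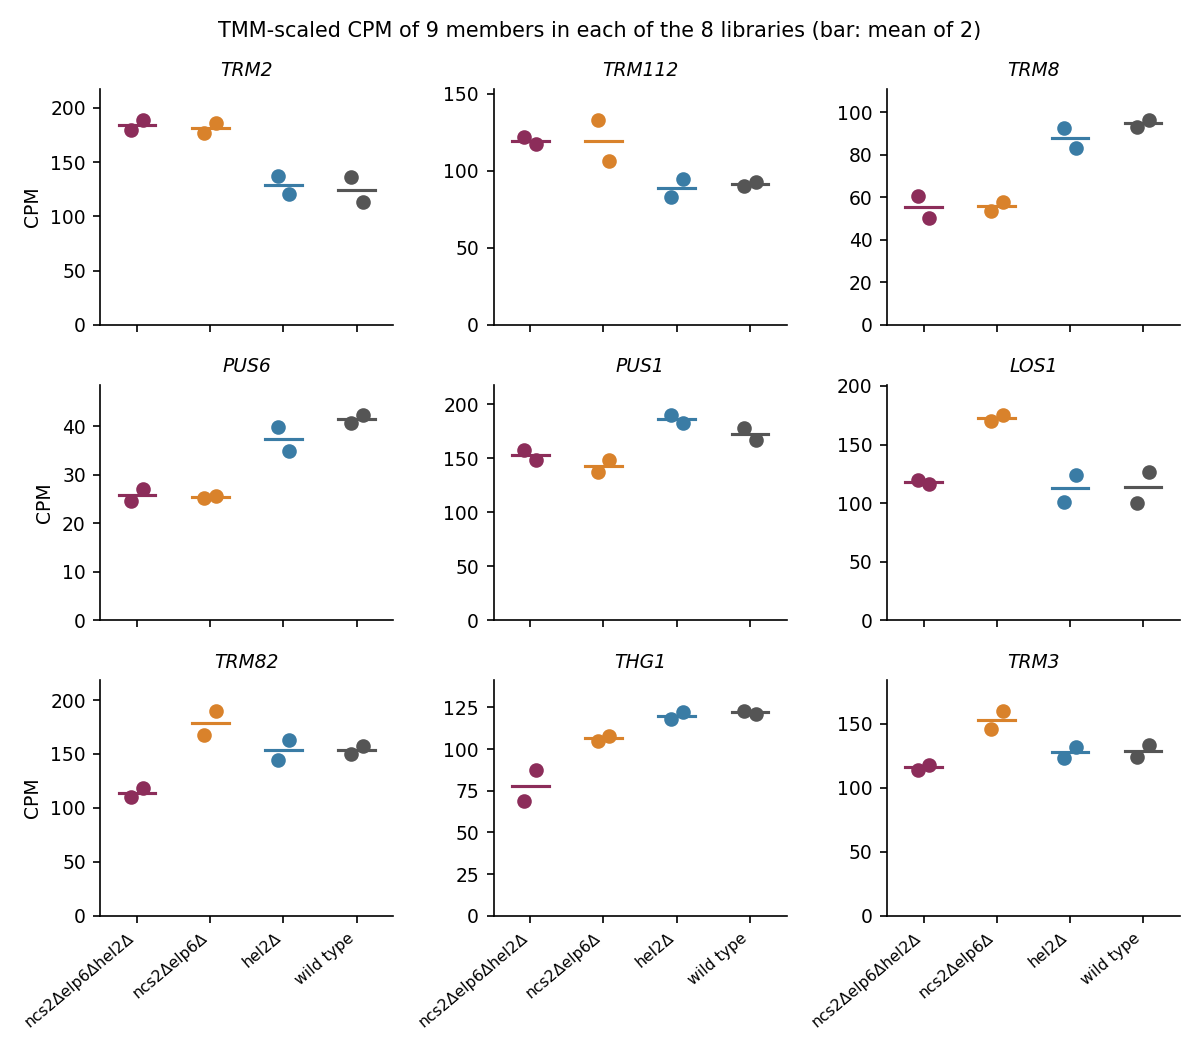
TMM-scaled CPM (y axis, from 0) of 9 members in each library of ncs2Δelp6Δhel2Δ, ncs2Δelp6Δ, hel2Δ and wild type, with a bar at the mean of 2 libraries. TRM2, TRM112, TRM8, PUS6 and PUS1 split by U34 modification, LOS1 is highest in ncs2Δelp6Δ, and TRM82, THG1 and TRM3 are lowest in ncs2Δelp6Δhel2Δ.

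Loss of HEL2 was compared in cells with and without U34 modification. With it, in hel2Δ against wild type, 0 of 39 members were called by edgeR and 0 by DESeq2, against 0.657% of all genes in edgeR. An unadjusted p under 0.05 was found for 0 members, against 313 of the 6087 genes tested. The median log2 fold change was -0.01, and values ran from -0.20 for TRM11 to 0.11 for PUS4 and PUS1. In cells without U34 modification, ncs2Δelp6Δhel2Δ against ncs2Δelp6Δ, 4 members (10.3%) were called, against 6.93% of all genes. All 4 were lower (TRM82, LOS1, THG1 and TRM3), against 4.12% of all genes called lower, and 0 were higher, against 2.81% of all genes. The median of the list was -0.01, against 0.00 over all genes.

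TRM82 (chromosome IV, 784871 to 786205), the non-catalytic partner of Trm8, had the largest fall. It had 110 and 118 CPM in ncs2Δelp6Δhel2Δ and 168 and 190 CPM in ncs2Δelp6Δ, against 144 and 163 CPM in hel2Δ and 150 and 157 CPM in wild type. The triple mutant was below every other library and ncs2Δelp6Δ above every other. TRM82 fell by 0.65 on the log2 scale in ncs2Δelp6Δhel2Δ against ncs2Δelp6Δ (SE 0.09, adjusted p = 0.00472). This call was lost without ncs2Δelp6Δ replicate 2 or ncs2Δelp6Δhel2Δ replicate 1 (0.0853 and 0.0826). Against hel2Δ, the triple mutant was lower by 0.43 ± 0.09 (adjusted p = 0.00862), which was lost without hel2Δ replicate 2 or ncs2Δelp6Δhel2Δ replicate 1 (0.0562 and 0.069).

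LOS1 fell by 0.54 in ncs2Δelp6Δhel2Δ against ncs2Δelp6Δ (SE 0.12, adjusted p = 0.0345) and THG1 by 0.45 (SE 0.11, adjusted p = 0.038). TRM3 (chromosome IV, 258915 to 263225) had 114 and 118 CPM in ncs2Δelp6Δhel2Δ and 146 and 160 CPM in ncs2Δelp6Δ, against 123 and 132 CPM in hel2Δ and 124 and 133 CPM in wild type. It fell by 0.40 (SE 0.08, adjusted p = 0.0249). For LOS1 and TRM3 the call was lost without any one library of either strain (0.118 to 0.226 for LOS1, 0.0756 to 0.236 for TRM3). For THG1 it was lost without either ncs2Δelp6Δ library or ncs2Δelp6Δhel2Δ replicate 1 (0.169 to 0.295). Without ncs2Δelp6Δ replicate 2, or without ncs2Δelp6Δhel2Δ replicate 1, 0 members were called. TAD3 stood at -0.37 without being called (adjusted p = 0.0772), and was called in the fit blocked on replicate number (adjusted p = 0.0427).

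Base composition moved with this comparison. Over 5645 tested genes with a coding sequence, the log2 fold change in ncs2Δelp6Δhel2Δ against ncs2Δelp6Δ followed the GC content of the coding sequence with a Spearman's rho of 0.44, and over the members with 0.46. Over the same genes the rho was 0.45 in the interaction and 0.22 in ncs2Δelp6Δhel2Δ against hel2Δ. It was -0.15 in ncs2Δelp6Δ against wild type and -0.05 in hel2Δ against wild type. With coding length the rho was -0.27 in ncs2Δelp6Δhel2Δ against ncs2Δelp6Δ and 0.18 in ncs2Δelp6Δ against wild type. Genes of one library share its depth and preparation, so these values are descriptions. The 4 members called had a GC content of 33.7% (LOS1), 34.9% (THG1), 35.4% (TRM82) and 36.5% (TRM3), against a median of 39.3% in the list and 39.8% over all coding sequences. TRL1, at 36% GC, lies among them and was not called (-0.09 on the log2 scale, adjusted p = 0.58). LOS1 and TRM3 are also long, at 3300 and 4308 nt, against a median of 1269 nt in the list. In single libraries, the deviation of log2 CPM from the mean of all 8 had a rho with GC content of 0.21 and 0.38 in ncs2Δelp6Δhel2Δ and of -0.05 and -0.42 in ncs2Δelp6Δ, while the 4 libraries with U34 modification lay between -0.10 and 0.01.

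A fit chosen after seeing the data took out the smooth trend of each library on GC content and coding length. It removes any change that follows these properties, whatever gave rise to it. With these offsets the log2 fold change in ncs2Δelp6Δhel2Δ against ncs2Δelp6Δ was -0.31 for TRM82 (adjusted p = 0.0409), -0.12 for TRM3 (adjusted p = 0.316), -0.10 for THG1 (adjusted p = 0.661) and 0.01 for LOS1 (adjusted p = 0.943). TRM82 and TAD3 (-0.46, adjusted p = 0.0431) were then the 2 members called. The same offsets gave LOS1 a rise of 0.32 in ncs2Δelp6Δ against wild type (adjusted p = 0.00825) and of 0.34 in ncs2Δelp6Δhel2Δ against hel2Δ (adjusted p = 0.00573). Against hel2Δ, with the offsets, THG1 in the triple mutant was at -0.38 (adjusted p = 0.0346) and TRM82 at -0.26 (adjusted p = 0.015). TRM3 (0.07, adjusted p = 0.444) and TRM7 (-0.24, adjusted p = 0.0551) lost their calls in ncs2Δelp6Δ against wild type, and DUS3 (0.21, adjusted p = 0.0648) in ncs2Δelp6Δhel2Δ against hel2Δ.

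**Figure D3:**
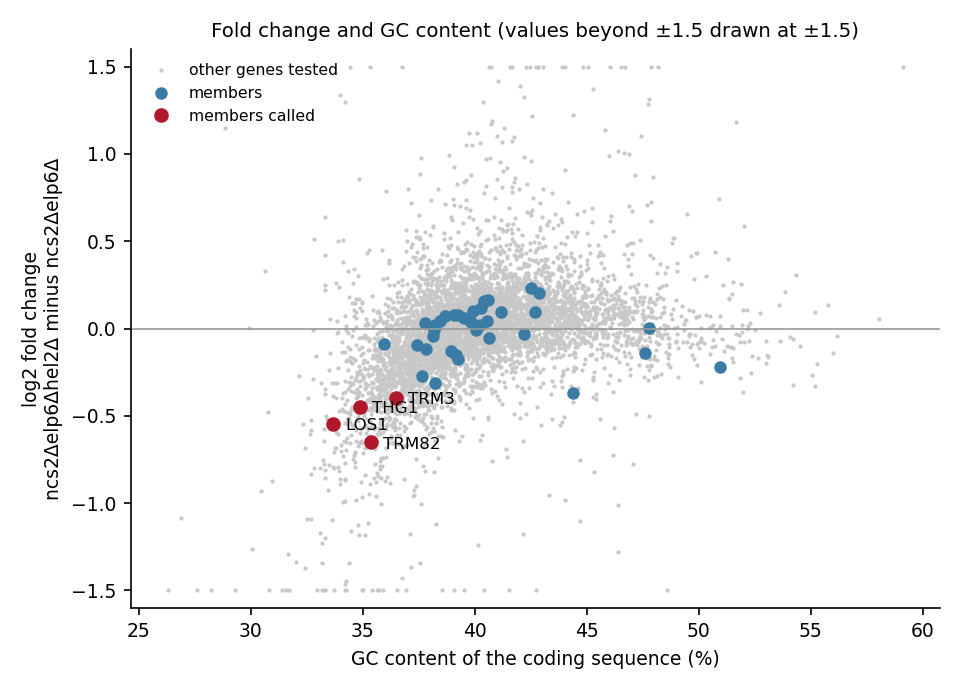
Log2 fold change in ncs2Δelp6Δhel2Δ minus ncs2Δelp6Δ (y axis) against the GC content of the coding sequence in percent (x axis), with 1 point per gene. The 4 members called, from 33.7% to 36.5% GC, lie below 0, at the low end of the GC range of the list.

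**Figure D4:**
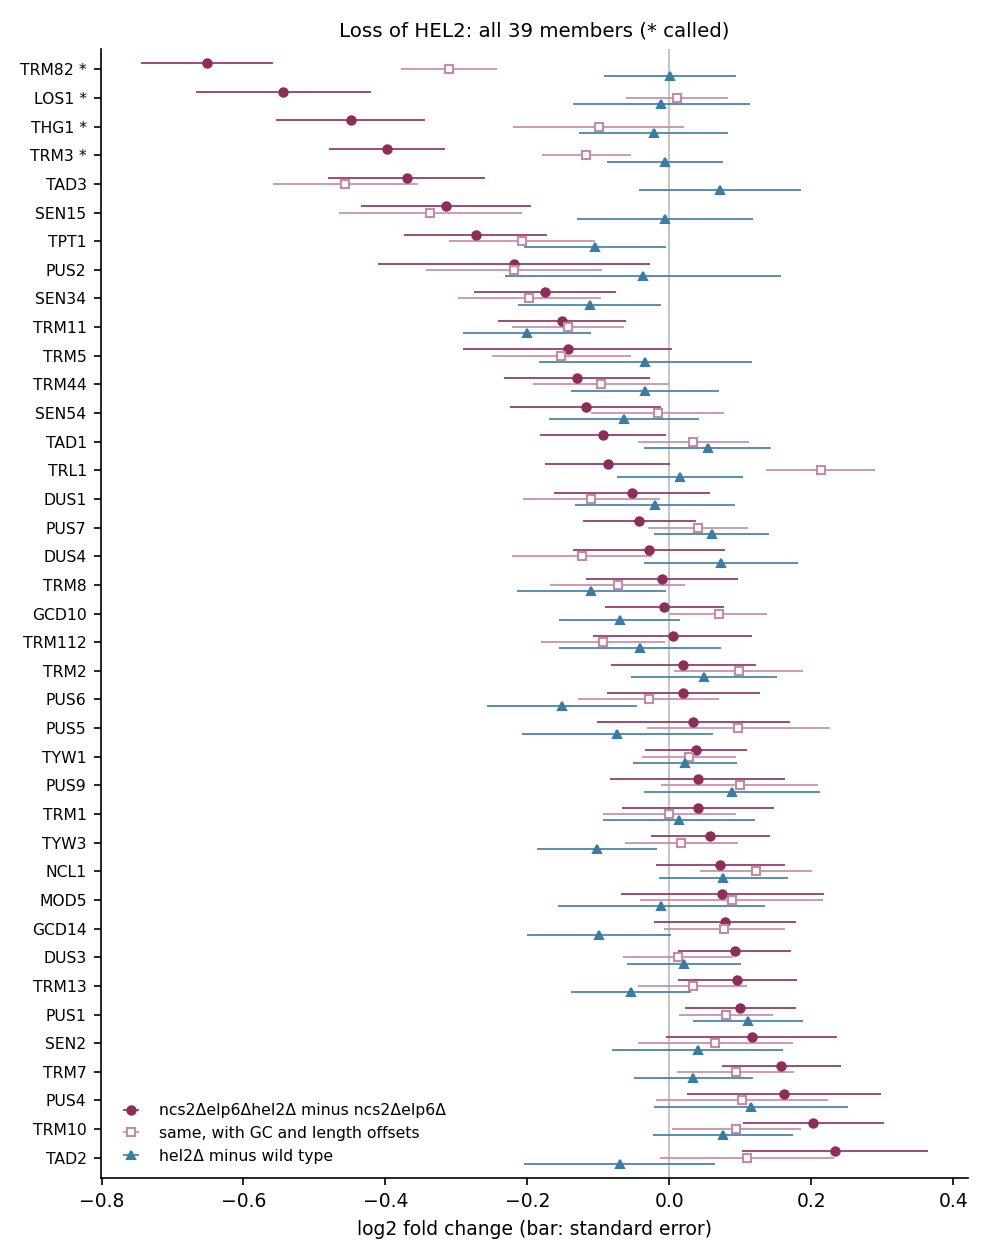
Log2 fold change with loss of HEL2 for all 39 members, as ncs2Δelp6Δhel2Δ minus ncs2Δelp6Δ (circles), the same with GC and length offsets (squares) and hel2Δ minus wild type (triangles), with standard errors as bars. The offsets bring LOS1 to 0.01, THG1 to -0.10 and TRM3 to -0.12, and leave TRM82 at -0.31.

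The interaction asks whether loss of HEL2 acted differently without U34 modification, and it is the difference between these comparisons. 0 members were called, against 1.13% of all genes. An unadjusted p under 0.05 was found for 5 of 39 members, against 877 of the 6087 genes tested. These members were TRM82, TRM3, LOS1, THG1 and TAD3, all with a negative value. DESeq2 called 1 member, TRM82. TRM82 had -0.65 ± 0.13 (adjusted p = 0.0545). Over 16 alternatives its adjusted p ran from 0.00325 to 0.286 and it was called in 5, among them the replicate block (adjusted p = 0.0186). With GC and length offsets the value was -0.32 (adjusted p = 0.226).

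The ratio between genes of partner subunits was followed over the strains. The level of TRM8 was 0.55 and 0.42 times that of TRM82 in ncs2Δelp6Δhel2Δ and 0.32 and 0.30 times in ncs2Δelp6Δ, against 0.64 and 0.51 times in hel2Δ and 0.62 and 0.61 times in wild type. The ratio was thus lowest in ncs2Δelp6Δ, where TRM8 was low and TRM82 at its highest. TAD2 stood at 0.94 and 0.85 times TAD3 in ncs2Δelp6Δhel2Δ, 0.63 and 0.55 times in ncs2Δelp6Δ, 0.57 and 0.60 times in hel2Δ and 0.66 and 0.63 times in wild type. GCD10 to GCD14 gave ratios of 0.95 and 1.06 in ncs2Δelp6Δhel2Δ and 1.03 and 1.1 in ncs2Δelp6Δ, against 1.22 and 1.22 in hel2Δ and 1.14 and 1.27 in wild type. TRM11 to TRM112 gave 0.82 and 0.96 in ncs2Δelp6Δhel2Δ and 0.87 and 1.14 in ncs2Δelp6Δ, against 1.32 and 1.13 in hel2Δ and 1.46 and 1.26 in wild type. For GCD10 to GCD14 the libraries without U34 modification all lay below the others, whereas for TRM11 to TRM112 the groups overlapped. SEN15 to SEN34 gave 0.74 and 0.83 in ncs2Δelp6Δhel2Δ and 0.86 and 0.86 in ncs2Δelp6Δ, against 0.68 and 0.74 in hel2Δ and 0.70 and 0.62 in wild type. SEN2 to SEN54 gave 1.21 and 1.23 in ncs2Δelp6Δhel2Δ and 1.13 and 0.95 in ncs2Δelp6Δ, against 1.55 and 1.10 in hel2Δ and 1.20 and 1.24 in wild type. The groups overlapped for SEN2 to SEN54 and met at 0.74 for SEN15 to SEN34. These ratios were not tested.

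**Figure D5:**
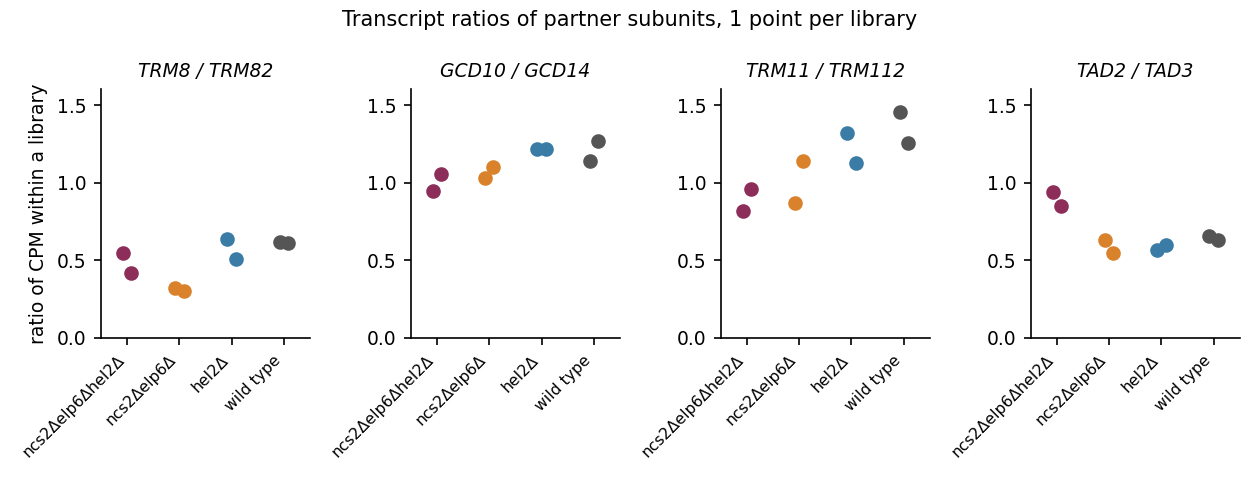
Ratio of CPM between the genes of partner subunits within each library (y axis, from 0), with 1 point per library in ncs2Δelp6Δhel2Δ, ncs2Δelp6Δ, hel2Δ and wild type. TRM8 to TRM82 is lowest in ncs2Δelp6Δ, at 0.32 and 0.30, and TAD2 to TAD3 is highest in ncs2Δelp6Δhel2Δ, at 0.94 and 0.85.

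The promoters of the members were searched for motifs known from ribosome biogenesis genes. The PAC motif (GATGAG, searched on both strands) was found in 23 of 39 members (59%) between 250 bases before and 50 after the gene start, against 20.4% of 6001 promoters. The RRPE motif (AAAATTTT, its own reverse complement) was found in 10 members (25.6%), against 9.03% of all promoters. Neither motif contains the other. The site of Gcn4, the activator of amino acid synthesis genes (TGACTCA, both strands), was found in 0 of 39, against 2.73%. A match is a description of letters, not a bound site. The following stretches, from the RefSeq R64 genome and on the coding strand, are shown because they hold both motifs upstream of 4 of the members that were called. TRM7 and GCD14 are the other called members with both. The motifs are in capitals, with CTCATC being PAC on the other strand. They lie at chrIV:784756-784798 (plus strand), chrXIV:707630-707706 (plus strand), chrXVI:153344-153391 (minus strand) and chrXI:49801-49986 (plus strand).
TRM82: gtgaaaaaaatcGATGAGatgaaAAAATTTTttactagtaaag
TRM112: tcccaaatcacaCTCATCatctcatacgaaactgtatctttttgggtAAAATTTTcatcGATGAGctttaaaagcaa
PUS1: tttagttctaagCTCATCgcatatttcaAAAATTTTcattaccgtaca
LOS1: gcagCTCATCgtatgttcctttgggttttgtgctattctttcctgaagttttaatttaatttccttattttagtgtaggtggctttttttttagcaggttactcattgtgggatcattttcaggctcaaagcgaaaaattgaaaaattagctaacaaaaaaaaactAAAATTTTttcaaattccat

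The called members with both motifs did not move alike. In ncs2Δelp6Δ against wild type TRM112 and LOS1 were higher, PUS1 and TRM7 were lower, and TRM82 and GCD14 were not called. The 23 members with PAC had a median of 0.15 on the log2 scale in ncs2Δelp6Δ against wild type, with 5 called higher and 2 lower. The 16 without PAC had a median of -0.11, with 1 higher and 3 lower. Over all genes, 14.9% were higher and 13% lower, and genes outside the list were not split by PAC. In ncs2Δelp6Δhel2Δ against hel2Δ the medians of the members with and without PAC were 0.07 and -0.11. The difference was not tested. TRM2, TRM8 and PUS6, whose calls held in every alternative run, have no PAC in this window, and TRM8 has RRPE at 2 places.

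Codon content was compared because the study examined ribosomes at certain codon pairs. Only pairs in which a GCA or CGA codon is followed by AAA or CAA were counted here. Other slow pairs of the study, such as CGA-AGA and those ending in GAA, were not counted. The counted pairs occurred in frame in 20 of 39 members (51.3%), against 40.1% of 6002 coding sequences, with 31 pairs in the list. Codons AAA, CAA and GAA made up a median of 12.3% of codons in the list and 11.3% over all coding sequences. Members with such a pair had a median of 0.01 on the log2 scale in ncs2Δelp6Δ against wild type, with 3 called higher and 3 lower. Those without one had a median of 0.06, with 3 higher and 2 lower. Over all genes, 14.9% were higher and 13% lower. Sites in several members called in a comparison of U34 loss are given from the coding strand of RefSeq R64, to show the pair in each transcript, with the pair in capitals.
TRM3 codons 90 and 91: ctaagaacttctGCACAAttactatgttgt
TRM3 codons 868 and 869: ttggaggaacatGCACAAacgattatatca
TRM7 codons 16 and 17: tactatagaaaaGCAAAAgagcagggctat
NCL1 codons 132 and 133: aatgaacaattcGCAAAAactcagagattt
PUS6 codons 399 and 400: ttaccaaaatggGCACAAttggacaatagt
SEN15 codons 123 and 124: tataaaggagtaCGAAAAccgaaaagaaat
LOS1 codons 386 and 387: gattcaataacaGCAAAAaccttcccattc

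The PUS6 and SEN15 pairs lie near the end of coding sequences of 404 and 128 codons. They fall within the end stretch that the study left out of its codon analysis. Whether the pairs bear on the changes in level was not tested. PUS6, which fell, and LOS1, which rose in ncs2Δelp6Δ, each hold 1 of the pairs counted. TRM8 and TRM2, with the largest fall and one of the largest rises, hold none of the pairs counted.

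Other genes of tRNA maturation were compared as lists. Of 19 further modification genes, 7 were higher and 2 lower in ncs2Δelp6Δ against wild type, and 7 were higher and 4 lower in ncs2Δelp6Δhel2Δ against hel2Δ. Of all genes, 14.9% were higher and 13% lower in the first comparison and 15.1% and 13.8% in the second. PPM2, for wybutosine, rose by 0.78 ± 0.13 in the first comparison (adjusted p = 0.00262). SUA5, for threonylcarbamoyladenosine, rose by 0.61 ± 0.08 (adjusted p = 0.0005) and 0.50 ± 0.08 (adjusted p = 0.00125). TAN1, for acetylcytidine, fell by 0.60 (SE 0.13, adjusted p = 0.00954) and 0.76 (SE 0.13, adjusted p = 0.00256). TRM732, the gene of a partner of Trm7, was the 1 gene of that list called in ncs2Δelp6Δhel2Δ against ncs2Δelp6Δ, where 6.93% of all genes were called. It fell there by 0.64 (SE 0.10, adjusted p = 0.00605). With GC and length offsets it stood at -0.25 (adjusted p = 0.0939).

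Of 6 other genes of tRNA transport, 3 were higher and 0 lower in ncs2Δelp6Δ against wild type, where 14.9% of all genes were higher and 13% lower. They were led by UTP8 at 0.60 ± 0.09 (adjusted p = 0.00166) and MEX67 at 0.51 ± 0.09 (adjusted p = 0.00335). UTP8 was lower by 0.57 ± 0.09 in ncs2Δelp6Δhel2Δ against ncs2Δelp6Δ (adjusted p = 0.0102), which became -0.17 (adjusted p = 0.151) with the offsets. Of 13 genes for the tRNA ends, 0 were called in either comparison of U34 loss, against 27.9% and 28.8% of all genes. In ncs2Δelp6Δhel2Δ against ncs2Δelp6Δ 2 of them were lower, against 4.12% of all genes. They were the RNase P and MRP subunit gene POP6 (-1.29, adjusted p = 0.0438) and the 3′ end nuclease gene TRZ1 (-0.33, adjusted p = 0.0373). Under the offsets these stood at -0.61 (adjusted p = 0.17) and -0.06 (adjusted p = 0.639). POP6 also varied within strains, with 28.7 and 57.1 CPM in wild type and 26.9 and 48.5 CPM in hel2Δ.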

How the data were processed

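Poly(A)-enriched RNA of 4 strains, 2 libraries each, was sequenced after preparation with a stranded kit. The authors deposited raw counts per gene, which per the methods of the study came from reads mapped to coding sequences without adaptor trimming. The submitters' processing notes name Bowtie and sacCer3. The counting program, its use of strand and the annotation release were not given in the sources used here. The levels of LEU2 and URA3, used as markers, were not analysed here.

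Genes were filtered with filterByExpr of edgeR 4.0.16 in R 4.3.3, which kept 6087 of 6337. TMM scaling and a quasi-likelihood model with 1 coefficient for each strain were applied to all 8 libraries, and 5 contrasts were tested with the two-sided F test. P-values were adjusted by Benjamini-Hochberg over all genes tested and called under 0.05. DESeq2 1.42.0 was an alternative, beside other scalings, filters, a replicate block and omission of each library. GC and length offsets and a crossed pairing were added after seeing the data. The crossed pairing is a replicate block with the replicate numbers of ncs2Δelp6Δ swapped. Each standard error was derived from the log2 fold change and its F value. With 2 libraries against 2, an exact permutation test of single values cannot go below p = 0.333. The pipeline was tested on simulated data.

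RefSeq R64 served for coordinates and sequences, and 5804 table names matched it and 533 did not. BLAST 2.17.0 found no near-identical copy (at least 95% identity over 100 nt) of any member. The members and lists were chosen with earlier results of these data known. The genes named are the members called in any contrast, with all 8 libraries given for those called in both contrasts of U34 loss or in a contrast of HEL2 loss, partner subunits, the highest and lowest member, and up to 3 examples of each further list. One codon-pair site is not reported here.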

Additional observations from a re-analysis of the deposited data

Results flagged for a closer look

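For 2 members all libraries stood apart in opposite directions with loss of U34 modification in cells with and without Hel2. The share of all genes that do so was not computed. Libraries also stood apart for 8 of 39 members in hel2Δ against wild type, where 0 were called. The share of all genes whose libraries stand apart is not given here either. With 2 libraries against 2, an exact permutation test cannot go below p = 0.333, so standing apart is weak evidence for a single gene. TRM82 was at 0.225 on the log2 scale in ncs2Δelp6Δ against wild type (not called, adjusted p = 0.102), with both ncs2Δelp6Δ libraries above both wild-type libraries, and at -0.428 in ncs2Δelp6Δhel2Δ against hel2Δ, with both triple-mutant libraries below both hel2Δ libraries. TRM3 was at 0.253 in the first comparison and at -0.139 in the second (not called, adjusted p = 0.226), with the libraries apart in the same manner. The test of the difference itself, the interaction in edgeR, gave an adjusted p of 0.0545 for TRM82 and 0.187 for TRM3, so neither passed the threshold. With GC and length offsets these were 0.226 and 0.652.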

How the results depend on the processing

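Of 27 calls of a member in a comparison, 7 held in each of 17 alternatives, namely TRM2, TRM8 and PUS6 in both comparisons of U34 loss and THG1 in ncs2Δelp6Δhel2Δ against hel2Δ. Among these calls and alternatives, LOS1 alone turned its direction, to 0.011 in ncs2Δelp6Δhel2Δ against ncs2Δelp6Δ with GC and length offsets, which left 2 members called there. Omission of 1 library gave 4 to 12 members called in ncs2Δelp6Δ against wild type, 0 to 4 in ncs2Δelp6Δhel2Δ against ncs2Δelp6Δ, 4 to 13 in ncs2Δelp6Δhel2Δ against hel2Δ and 0 to 1 in the interaction, and medians of the list of -0.016 to 0.055, -0.007 to 0.054, -0.056 to -0.029 and -0.085 to 0.046. With library totals the list's median was -0.064 in hel2Δ against wild type, 0.160 in ncs2Δelp6Δ against wild type, -0.070 in ncs2Δelp6Δhel2Δ against ncs2Δelp6Δ and 0.053 in ncs2Δelp6Δhel2Δ against hel2Δ. In ncs2Δelp6Δ against wild type it was 0.025 with RLE scaling, 0.025 with DESeq2 and 0.024 with the 2 strains alone, and in ncs2Δelp6Δhel2Δ against ncs2Δelp6Δ 0.018 with RLE scaling and with DESeq2. In the interaction, 1 member was called without a filter, 1 with the replicate block and 1 with DESeq2. The cause was not tested. The labels give only a shared replicate number. Same-number libraries correlated at 0.476 between wild type and hel2Δ, so these strains shared some replicate structure. In the other pairs of strains the correlation lay between -0.209 and 0.12, and the main fit took no libraries as paired. The replicate block ended the TRM7 call alone and added TRM82, NCL1, DUS1 and SEN2 in ncs2Δelp6Δ against wild type and TAD3 in ncs2Δelp6Δhel2Δ against ncs2Δelp6Δ. A crossed pairing gave 18 members called in ncs2Δelp6Δ against wild type and 3 in the interaction.

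Over all genes, 40 were called in hel2Δ against wild type, 61 with DESeq2, 17 with the 2 strains alone, 79 with the crossed pairing and 19 to 30 without single libraries. In ncs2Δelp6Δhel2Δ against ncs2Δelp6Δ 422 were called, 647 with DESeq2, 869 with the 2 strains alone, 663 with the block, 1265 with the crossed pairing, 174 with the offsets and as few as 69 without ncs2Δelp6Δ replicate 2. In the interaction 69 were called, 153 with DESeq2, 119 with the block, 322 with the crossed pairing and 40 to 140 without single libraries. In ncs2Δelp6Δ against wild type 1699 were called, and 791 without ncs2Δelp6Δ replicate 2. In ncs2Δelp6Δhel2Δ against hel2Δ 1754 were called, and 904 without ncs2Δelp6Δhel2Δ replicate 1. Precision rests on 2 libraries per strain, and small changes may be missed at this number.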

Other observations

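The promoters of ribosome biogenesis genes are known for the PAC and RRPE motifs. Of 24 such genes, 6 were higher and 3 lower in ncs2Δelp6Δ against wild type. In ncs2Δelp6Δhel2Δ against hel2Δ, 4 were higher and 4 lower. Over all genes, 14.9% were higher and 13% lower in the first comparison and 15.1% and 13.8% in the second. UTP10, of the small subunit processome, had 0.63 ± 0.10 in the first comparison (adjusted p = 0.00208 in edgeR) and -0.005 in the second (adjusted p = 0.979). In ncs2Δelp6Δhel2Δ against ncs2Δelp6Δ it was called lower, at -0.57 (adjusted p = 0.015). With GC and length offsets that call was lost, and 0 of the 24 genes were called there. CBF5, the pseudouridine synthase of rRNA, had -0.46 ± 0.08 (adjusted p = 0.00355) and, in the second comparison, -0.28 ± 0.08 (adjusted p = 0.0307).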
